A study of Mus musculus with 15 samples.

Results

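The genes described here are 10 genes of bone morphogenetic protein (BMP) signaling, namely the ligands *Bmp2*, *Bmp4* and *Bmp8b*, the receptor gene *Bmpr1a*, the inhibitor *Smad6*, and the response genes *Id1*, *Id2*, *Id3*, *Msx1* and *Msx2*. They were taken by symbol, after the Ensembl identifiers of the count table were matched to the GENCODE M21 annotation, and are 10 of the 55536 genes in the table. The samples came from mouse ESCs with a Stella-eGFP reporter, a germline marker, and with transgenes of *Prdm1*, *Prdm14*, *Tfap2c* and *Nanog* that doxycycline (Dox) switches on through rtTA. All 15 samples carried these 4 transgenes, and the study derived its inducible lines as clones. There were 3 replicates of each of 5 groups. ESCs were kept in the naive state in 2i and LIF, that is with the MEK inhibitor PD0325901, the GSK3 inhibitor CHIR99021 and the cytokine LIF. EpiLCs, which are epiblast-like cells, were made from them over 48 h with Activin A and bFGF. D2PGCLCs, D4PGCLCs and D6PGCLCs were Stella-eGFP+ primordial germ cell-like cells after 2, 4 and 6 days with Dox. Their serum replacement medium held no added BMP or other cytokine. They were grown as suspended aggregates and sorted by the reporter, while ESCs and EpiLCs grew on coated wells with no sorting described. PGCLCs thus differed from ESCs and EpiLCs in Dox, medium, aggregation and sorting, which cannot be told apart here.

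BMP ligands are secreted dimers that bind pairs of type I and type II receptors on the cell surface. The activated type I receptor phosphorylates SMAD1, SMAD5 or SMAD9, which join SMAD4 and enter the nucleus. Among the genes that this pathway induces in many cell types are the *Id* genes, whose products hold E proteins away from DNA, the homeobox genes *Msx1* and *Msx2*, and *Smad6*, whose product inhibits the pathway in turn. In the mouse embryo, BMP4 and BMP8B from the extraembryonic ectoderm and BMP2 from the visceral endoderm take part in the specification of primordial germ cells from the epiblast, and BMP4 is a standard cytokine for making PGCLCs from EpiLCs.

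The samples held 22555021 to 42725681 counts each. In D6PGCLC replicate 1, 529 genes had 1 to 3 counts, against 3338 to 4606 genes in the 14 other samples, so low counts were largely missing there. *Bmp2*, *Bmp8b* and *Msx1* read 0 in that sample, and their day 6 values are given with and without it. Expression levels are CPM, that is counts scaled to a fixed library size after TMM normalization. Values in a group are listed in the order of replicates 1, 2 and 3. Differences were tested with edgeR's quasi-likelihood test over 18090 genes, with p-values adjusted by the Benjamini-Hochberg method. A gene was called higher or lower where the adjusted p was under 0.05 and the log2 fold change passed 1 in either direction. Of the 10 genes, 9 passed the filter on low counts, *Bmp8b* mainly through its counts in EpiLCs and *Msx1* through those in ESCs and EpiLCs, and *Bmp2* did not pass. The summed levels of the naive ESC, EpiLC and PGCLC markers were each highest in the cells they name. The naive ESC markers summed to 2063 to 2131 CPM in ESCs, 907 to 1124 CPM in PGCLCs and 219 to 250 CPM in EpiLCs. *Klf4* departed from this order, with means of 16.2 CPM in EpiLCs and 5.99 CPM in D2PGCLCs. So did *Esrrb*, with 590 CPM in ESCs and 620 CPM in D2PGCLCs. The EpiLC markers summed to 1824 to 1966 CPM in EpiLCs, where *Dnmt3b* had a mean of 1558 CPM. The PGCLC markers summed to 885 to 1300 CPM in PGCLCs against 118 to 178 CPM in ESCs and EpiLCs. They include the transgene *Tfap2c* and *Dppa3* (Stella), whose reporter the PGCLCs were sorted by, so the design set the rise of both. In RNA from whole samples, fewer expressing cells and less RNA per cell cannot be told apart.

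The promoters of *Bmp4*, *Smad6*, *Bmp8b* and *Msx1* are shown because *Bmp4* and *Smad6* were called higher and *Bmp8b* and *Msx1* lower in D2PGCLCs than in EpiLCs, and because none of their bases lie in annotated exons. Each is the 250 bases before the RefSeq transcription start (build GRCm38.p6), read 5′ to 3′ on the gene's strand. The windows are chr14:46390670-46390919 for *Bmp4*, chr9:64022060-64022309 for *Smad6* and chr5:37824586-37824835 for *Msx1*, all on the minus strand, and chr4:123104911-123105160 for *Bmp8b*, on the plus strand. Capitals mark GGAGCC, a core letter sequence of SMAD1 and SMAD5 sites, on either strand (GGCTCC on the other), and in *Bmp8b* also CAGAC, the other strand of the SMAD4 element GTCTG.
Bmp4: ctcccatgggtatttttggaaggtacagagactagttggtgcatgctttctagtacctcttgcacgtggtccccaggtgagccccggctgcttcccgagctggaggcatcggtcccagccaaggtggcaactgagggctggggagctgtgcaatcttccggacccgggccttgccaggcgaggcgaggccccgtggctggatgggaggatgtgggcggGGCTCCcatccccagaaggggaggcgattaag
Smad6: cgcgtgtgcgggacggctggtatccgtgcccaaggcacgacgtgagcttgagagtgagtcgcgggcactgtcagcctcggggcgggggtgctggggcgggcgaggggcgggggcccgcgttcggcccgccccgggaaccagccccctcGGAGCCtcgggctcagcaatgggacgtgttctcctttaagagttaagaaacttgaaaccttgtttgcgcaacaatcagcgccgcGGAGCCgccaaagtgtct
Bmp8b: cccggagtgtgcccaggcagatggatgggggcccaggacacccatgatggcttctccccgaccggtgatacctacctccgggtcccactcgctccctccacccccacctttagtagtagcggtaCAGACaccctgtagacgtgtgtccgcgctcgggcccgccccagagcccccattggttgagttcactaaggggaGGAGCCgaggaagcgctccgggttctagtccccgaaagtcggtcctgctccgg
Msx1: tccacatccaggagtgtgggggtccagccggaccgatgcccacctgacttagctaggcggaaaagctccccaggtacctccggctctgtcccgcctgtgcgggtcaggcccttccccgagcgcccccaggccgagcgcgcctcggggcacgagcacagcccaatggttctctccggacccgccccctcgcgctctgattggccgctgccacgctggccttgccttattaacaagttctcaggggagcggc
The *Smad6* window held GGAGCC 2 times, at bases 102 to 97 and 18 to 13 before the start. The *Bmp4* window held it 1 time, at bases 32 to 27, and the *Bmp8b* window 1 time, at bases 53 to 48. The *Msx1* window did not hold it. *Msx2*, which was also called higher, held it 2 times in a window of exon bases that is not shown. The windows shown were picked by these calls, so a link between the motif and the direction was not tested. RefSeq promoters were at hand for 8 of the 10 genes (all but *Id1* and *Bmp2*), and 6 of these 8 held GGAGCC, against 26.0% of 32851 promoters of the same length. GGCGCC, another such core, was in 2 of the 8 (*Id2* and *Bmpr1a*) and in 9.59% of all promoters. The SMAD4 element GTCTG was in 2 (*Bmp8b* and *Id3*) and in 42.2%, and the E-box CANNTG, the motif that E proteins bind, was in 5 and in 66.2%. These are matches of letters on both strands, which say nothing of binding, and matches of different motifs were counted also where they overlap. Annotated exons covered 141 of the 250 bases in *Bmpr1a*, 161 in *Id2*, and all 250 in *Id3* and *Msx2*. The GGAGCC matches of *Id2*, *Id3* and *Msx2* are thus in windows with exon bases, and base composition was not matched.

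**Figure D1:**
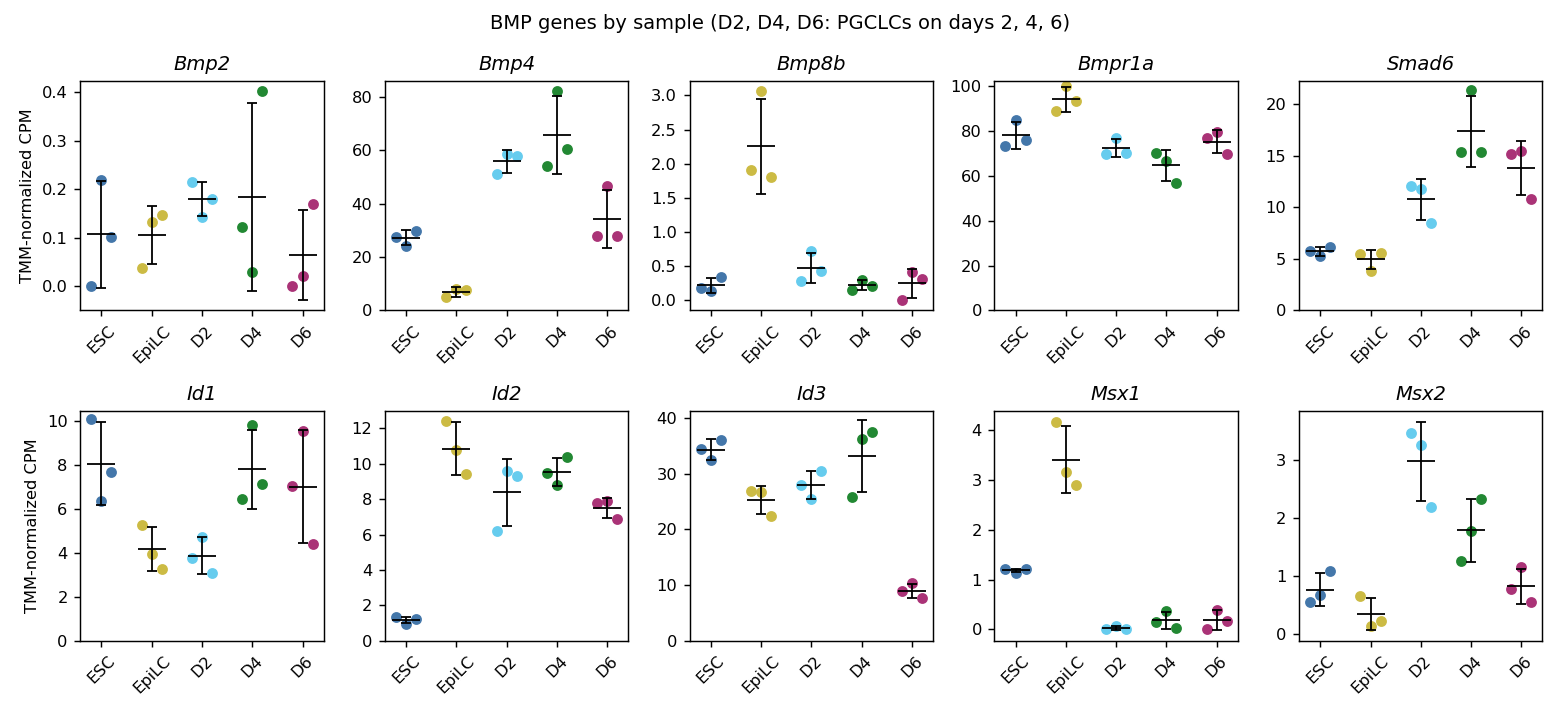
TMM-normalized CPM (y axes, linear, each gene on its own scale) of the 10 genes in ESCs, EpiLCs and PGCLCs on days 2, 4 and 6 (x axes). Points are samples in the order of replicates 1 to 3, and the bars are the mean ± SD (n = 3). *Bmp4* dips in EpiLCs and is highest on days 2 and 4, *Bmp8b* and *Msx1* are highest in EpiLCs, *Id2* is lowest in ESCs, and *Id3* is lowest on day 6.

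Over the steps of induction, calls among the 10 genes were fewest on the later steps, as they were among all tested genes. In EpiLCs against ESCs, 2 of the 10 genes were called higher (*Bmp8b* and *Id2*) and 1 lower (*Bmp4*), where 14.4% and 11.9% of all tested genes were called. In D2PGCLCs against EpiLCs, 3 were called higher (*Bmp4*, *Smad6* and *Msx2*) and 2 lower (*Bmp8b* and *Msx1*), against 11% and 14.4% of all tested genes. From day 2 to day 4, *Id1* alone was called higher and no gene lower, against 2.56% and 0.376%. From day 4 to day 6, *Id3* alone was called lower and no gene higher, against 0.785% and 2.29%. For the directions with no call by edgeR, 0 and 1 genes had an unadjusted p under 0.05, and DESeq2 called 0 and 0. In the 9 genes the median log2 fold change was -0.22, -0.11, 0.23 and -0.33 over the 4 steps, against -0.01, 0.00, 0.02 and -0.01 over all tested genes.

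Day 6 was also compared with both starting states, in comparisons that share the D6PGCLC samples. Against EpiLCs, 3 genes were called higher in D6PGCLCs (*Bmp4*, *Smad6* and *Msx2*) and 3 lower (*Bmp8b*, *Id3* and *Msx1*), where 15.9% and 12% of all tested genes were called. Against ESCs, *Smad6* and *Id2* were called higher and *Id3* and *Msx1* lower, where 15.8% and 10.3% of all tested genes were called.

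**Figure D2:**
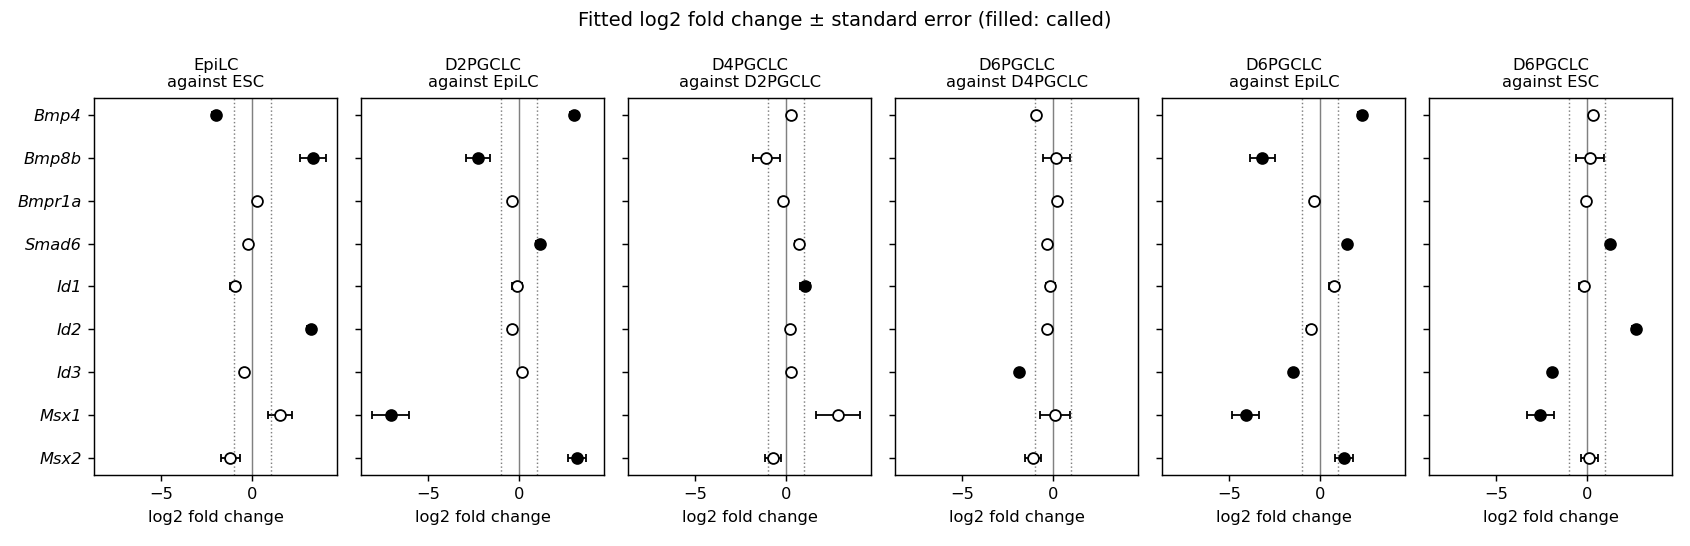
Fitted log2 fold change (x axes) of the 9 tested genes (y axis) in 6 comparisons, with bars of ± 1 standard error, which are shorter than the symbol for most genes. Filled points were called (beyond the dotted lines at -1 and 1, with an adjusted p under 0.05), as for *Bmp4*, *Smad6* and *Msx2* on the right and *Bmp8b* and *Msx1* on the left in D2PGCLCs against EpiLCs.

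Among the 3 ligands, *Bmp4* had the highest level per length in every group, fell in EpiLCs and rose in D2PGCLCs. *Bmp4* (ENSMUSG00000021835, mm10 chr14:46383520-46390669, minus strand) had 27.7, 24.2 and 29.8 CPM in ESCs and 4.90, 8.02 and 7.82 CPM in EpiLCs. It had 51.1, 58.8 and 57.8 CPM in D2PGCLCs, 54.1, 82.2 and 60.6 CPM in D4PGCLCs, and 27.9, 46.8 and 28.1 CPM in D6PGCLCs. All EpiLC samples lay below all other samples, and all day 2 and day 4 samples lay above all ESC and day 6 samples.

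*Bmp4* was 3.93-fold lower in EpiLCs than in ESCs (log2 fold change -1.97, SE 0.21, edgeR adjusted p = 3.03e-07) and 8.05-fold higher in D2PGCLCs than in EpiLCs (3.01, SE 0.22, adjusted p = 1.29e-09). D2PGCLCs and D4PGCLCs were not told apart (edgeR adjusted p = 0.491). D6PGCLCs lay below D4PGCLCs by less than the cutoff (log2 fold change -0.94, SE 0.19, edgeR adjusted p = 0.00402). This difference passed the cutoff without D4PGCLC replicate 1 (-1.06) or without D6PGCLC replicate 2 (-1.24). In the order of means, D4PGCLC, D2PGCLC, D6PGCLC, ESC and EpiLC, the first pair and the pair of D6PGCLCs and ESCs (adjusted p = 0.159) did not differ by the test. *Bmp4* shares 89 exon bases with *Gm15217* on the opposite strand, which had 0 to 5 counts per sample.

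*Bmp8b* had its highest level in EpiLCs and few counts elsewhere. *Bmp8b* (ENSMUSG00000002384, chr4:123105165-123132099, plus strand) had 50, 93 and 49 counts in EpiLCs and 5, 3 and 10 in ESCs. In PGCLCs it had 9, 20 and 14 counts on day 2, 5, 10 and 7 on day 4, and 0, 19 and 11 on day 6. No sample of another group reached the EpiLC samples, and the 4 other groups overlapped.

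*Bmp8b* was 10.1-fold higher in EpiLCs than in ESCs (log2 fold change 3.33, SE 0.74, edgeR adjusted p = 0.000861) and 4.80-fold lower in D2PGCLCs than in EpiLCs (-2.26, SE 0.67, adjusted p = 0.00847). The D6PGCLC mean was 0.243 CPM with and 0.365 CPM without replicate 1, and the log2 fold change of D6PGCLCs against EpiLCs was -3.18 with it and -2.60 without it. The differences among the 4 other groups did not pass the test. *Bmp8b* shares 133 exon bases with *Ppie* on the opposite strand, which had 1134 to 2109 counts per sample, and the sources do not state whether strand was used in counting. It also shares 210 of its 3815 stretches of 50 exon bases (5.5%) with its neighboring paralog *Bmp8a*, so its counts are uncertain, and the part of either gene in them was not tested.

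*Bmp2* (ENSMUSG00000027358, chr2:133552159-133562885, plus strand) was close to undetected. It had 0, 5 and 3 counts in ESCs, 1, 4 and 4 in EpiLCs, 7, 4 and 6 on day 2, 4, 1 and 14 on day 4, and 0, 1 and 6 on day 6. All groups overlapped. For comparison, 3 counts equal 0.0661 to 0.132 CPM in a sample, and the group means of *Bmp2* were 0.0640 CPM (D6PGCLCs, 0.0960 without replicate 1) to 0.184 CPM (D4PGCLCs). The summed counts gave a ratio of D2PGCLCs to ESCs of 1.81, with a 95% counting interval of 0.741 to 4.85, so a difference was not detectable at this depth.

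Levels of different genes can be compared per length only, as CPM per kb of exon. On that scale *Bmp4* stood at 12.1 ± 1.27 (SD, n = 3) in ESCs and 3.08 ± 0.778 in EpiLCs, and in PGCLCs at 24.9 ± 1.86 on day 2, 29.2 ± 6.52 on day 4 and 15.2 ± 4.83 on day 6. *Bmp8b* reached 0.582 ± 0.180 CPM per kb in EpiLCs and *Bmp2* at most 0.0518 ± 0.0544 CPM per kb, on day 4. Of the summed level of the 14 BMP and GDF ligand genes of the pathway list described further on, *Bmp4* made up 80.7% ± 2.08 in ESCs and 58.4% ± 9.54 in EpiLCs, and in PGCLCs 95.2% ± 1.00 on day 2, 93.2% ± 0.361 on day 4 and 81.4% ± 2.58 on day 6. The share of *Bmp4* on days 2 and 4 lay above that in every other sample.

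*Bmp7*, a related ligand that is not one of the 10 genes, made up 18.8% of this sum in EpiLCs, 3.86% on day 4 and 13.8% on day 6. *Bmp7* had 11.4, 10.7 and 7.77 CPM in D6PGCLCs and 4.03, 6.03 and 4.50 CPM in D4PGCLCs, without overlap. It was 1.04 higher on the log2 scale on day 6 (SE 0.27, edgeR adjusted p = 0.0159). This call stood at the cutoff of 1 and was not checked with samples left out. The ratio of *Bmp4* to *Bmp7* counts was 20.3, 17.6 and 37.0 in D2PGCLCs, 13.4, 13.6 and 13.5 in D4PGCLCs, and 2.44, 4.37 and 3.61 in D6PGCLCs. From day 4 to day 6 the mean log2 ratio fell by 2.00, and the exact permutation test gave a two-sided p = 0.1, the smallest that 3 against 3 samples allow.

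**Figure D3:**
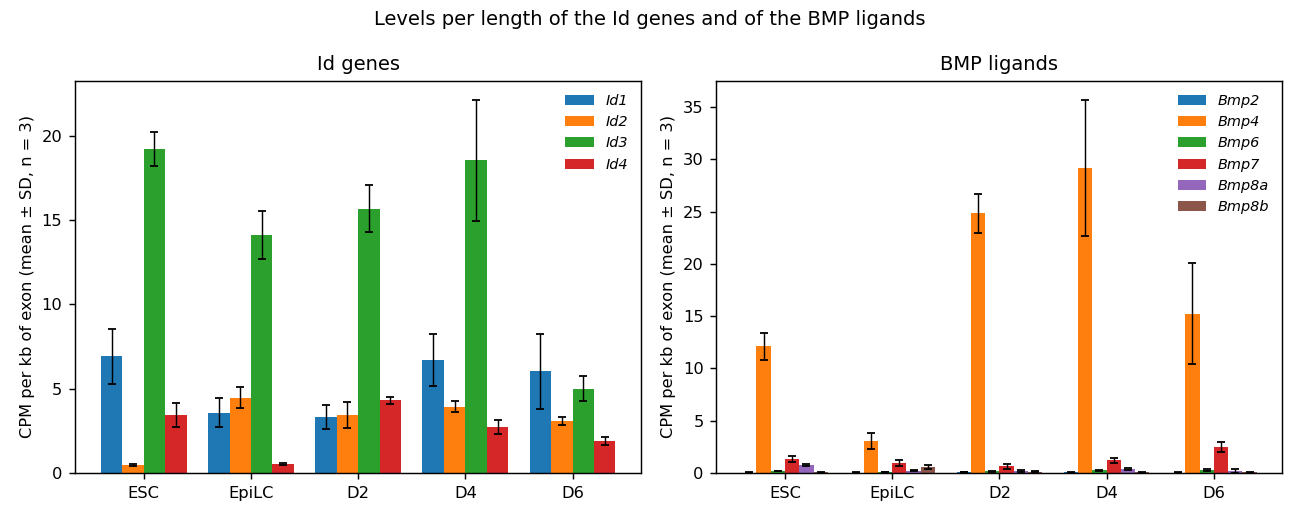
CPM per kb of exon (y axes, linear from 0) of the 4 *Id* genes and of 6 BMP ligands in the 5 groups (x axes). Bars are means and error bars the SD (n = 3). *Id3* is the highest *Id* gene in every group but D6PGCLCs, where the error bars of *Id1* and *Id3* overlap, and *Bmp4* is the highest ligand in every group.

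*Bmpr1a*, the gene of a type I receptor of BMP2 and BMP4, had group means of 64.7 to 94.3 CPM, the narrowest range by ratio of the 10 genes. *Bmpr1a* (ENSMUSG00000021796, chr14:34410734-34503341, minus strand) had 73.2, 85.0 and 76.3 CPM in ESCs, 89.0, 100.2 and 93.6 CPM in EpiLCs, 69.9, 77.2 and 70.3 CPM on day 2, 70.3, 66.8 and 57.1 CPM on day 4, and 76.8, 79.7 and 69.6 CPM on day 6. The EpiLC samples were the 3 highest of the 15, and all other groups overlapped with at least 1 other group. It was not called in any of the 6 comparisons. Its log2 fold change was 0.27 in EpiLCs against ESCs (SE 0.09, edgeR adjusted p = 0.0178) and -0.38 in D2PGCLCs against EpiLCs (SE 0.09, adjusted p = 0.00171), both smaller than the cutoff of 1. Below EpiLCs, the neighbors in the order of means, ESC, D6PGCLC, D2PGCLC and D4PGCLC, did not differ by the test (adjusted p = 0.276 to 0.654).

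*Smad6*, whose product blocks the receptor-regulated SMADs, was higher throughout the PGCLCs. *Smad6* (ENSMUSG00000036867, chr9:63953076-64022059, minus strand) had 5.80, 5.26 and 6.13 CPM in ESCs and 5.47, 3.85 and 5.54 CPM in EpiLCs. It had 12.1, 11.8 and 8.49 CPM in D2PGCLCs, 15.4, 21.4 and 15.4 CPM in D4PGCLCs, and 15.2, 15.5 and 10.8 CPM in D6PGCLCs. All 9 PGCLC samples lay above all 6 samples of ESCs and EpiLCs.

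*Smad6* was 2.18-fold higher in D2PGCLCs than in EpiLCs (log2 fold change 1.12, SE 0.20, edgeR adjusted p = 0.000112), although without EpiLC replicate 2 the value was 0.97, under the cutoff. From day 2 to day 4 it was higher by less than the cutoff (0.69, SE 0.19, edgeR adjusted p = 0.024), and day 6 was told apart from neither day 4 (adjusted p = 0.272) nor day 2 (adjusted p = 0.141). ESCs and EpiLCs did not differ by the test (adjusted p = 0.399). At day 6 it was 2.80-fold higher than in EpiLCs and 2.41-fold higher than in ESCs.

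The *Id* genes, which code for inhibitors of E proteins, did not move together. *Id1* (ENSMUSG00000042745, chr2:152736251-152737410, plus strand) had 10.1, 6.36 and 7.67 CPM in ESCs, 5.24, 3.95 and 3.27 CPM in EpiLCs and 3.77, 4.73 and 3.06 CPM in D2PGCLCs. It had 6.43, 9.82 and 7.13 CPM in D4PGCLCs and 7.04, 9.53 and 4.39 CPM in D6PGCLCs. EpiLC and day 2 samples lay below all ESC and day 4 samples, and day 6 overlapped with every other group.

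*Id1* was 2.03-fold higher in D4PGCLCs than in D2PGCLCs (log2 fold change 1.02, SE 0.27, edgeR adjusted p = 0.0214). This call stood at the cutoff. It was lost without D2PGCLC replicate 1 (1.01, adjusted p = 0.0735), without D2PGCLC replicate 3 (0.88, adjusted p = 0.0889), without D4PGCLC replicate 2 (0.82, adjusted p = 0.0975), and in the fit of these 2 groups alone (1.00, just under the cutoff, adjusted p = 0.0247). In EpiLCs against ESCs it was lower by less than the cutoff (-0.96, SE 0.28, edgeR adjusted p = 0.00696), and passed the cutoff without ESC replicate 2 (-1.10) or EpiLC replicate 1 (-1.14). ESCs, D4PGCLCs and D6PGCLCs were not told apart (adjusted p = 0.901 and 0.753 for the neighbors), nor were EpiLCs and D2PGCLCs (adjusted p = 0.77).

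*Id2* (ENSMUSG00000020644, chr12:25093799-25097140, minus strand) had 1.31, 0.964 and 1.24 CPM in ESCs and 12.4, 10.8 and 9.39 CPM in EpiLCs. In PGCLCs it had 6.22, 9.60 and 9.33 CPM on day 2, 9.46, 8.83 and 10.4 CPM on day 4, and 7.78, 7.88 and 6.86 CPM on day 6. All ESC samples lay far below all others, and the PGCLC groups of days 2 and 4 overlapped with EpiLCs.

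*Id2* was 9.17-fold higher in EpiLCs than in ESCs (log2 fold change 3.20, SE 0.21, edgeR adjusted p = 3.59e-10), and D6PGCLCs were still 6.35-fold above ESCs (2.67, SE 0.21, adjusted p = 4.68e-09). No neighbors in the order EpiLC, D4PGCLC, D2PGCLC and D6PGCLC differed by the test (adjusted p = 0.396 to 0.553). D6PGCLCs lay below EpiLCs by less than the cutoff (-0.53, SE 0.18, edgeR adjusted p = 0.0153).

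*Id3* (ENSMUSG00000007872, chr4:136143497-136145755, plus strand) lay between 22.3 and 37.5 CPM until day 4 and was lower on day 6. It had 34.4, 32.5 and 36.1 CPM in ESCs, 26.8, 26.7 and 22.3 CPM in EpiLCs and 28.0, 25.5 and 30.5 CPM in D2PGCLCs. It had 25.8, 36.3 and 37.5 CPM in D4PGCLCs and 8.91, 10.3 and 7.62 CPM in D6PGCLCs. Each D6PGCLC sample had less than any of the 12 other samples.

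*Id3* was lower in D6PGCLCs than in D4PGCLCs (log2 fold change -1.89, SE 0.15, edgeR adjusted p = 8.91e-07), at 0.270 of the day 4 level. The value was -1.88 without D6PGCLC replicate 1. Day 6 also lay below EpiLCs (-1.50, SE 0.15, adjusted p = 6.25e-08) and below ESCs (-1.94, SE 0.15, adjusted p = 2.62e-09). The first 4 groups in the order of means, ESC, D4PGCLC, D2PGCLC and EpiLC, did not differ between neighbors (adjusted p = 0.285 to 0.784), while ESCs and EpiLCs differed by less than the cutoff (-0.44, SE 0.14, adjusted p = 0.0123).

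In the counts of each sample, *Id3* fell relative to *Id1* and *Id2* by day 6. The ratio of *Id3* to *Id1* counts was 3.42, 5.12 and 4.71 in ESCs and 5.12, 6.78 and 6.84 in EpiLCs. In PGCLCs it was 7.43, 5.40 and 9.98 on day 2, 4.01, 3.69 and 5.26 on day 4, and 1.26, 1.08 and 1.74 on day 6. The ratio of *Id3* to *Id2* counts was 2.72, 4.11 and 3.61 in D4PGCLCs and 1.15, 1.30 and 1.11 in D6PGCLCs. Both ratios were lower in every D6PGCLC sample than in any sample of the other groups, and neither depends on how libraries are scaled. From day 4 to day 6 the mean log2 ratio fell by 1.68 against *Id1* and by 1.53 against *Id2*, each with a two-sided exact permutation p = 0.1, the smallest that this design allows.

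**Figure D4:**
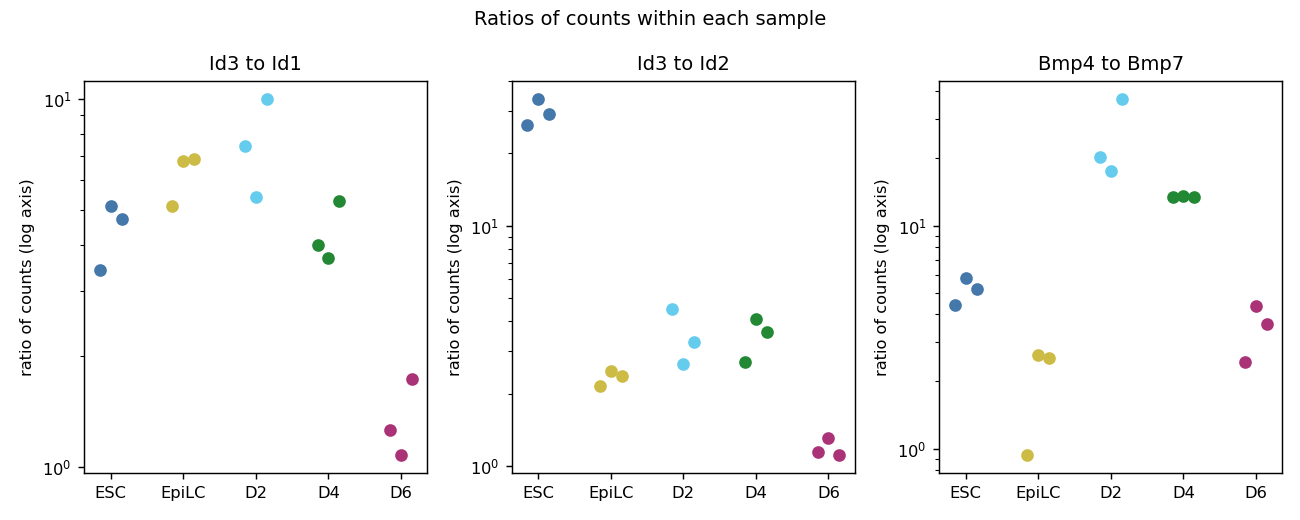
Ratios of the counts of 2 genes within each sample (y axes, logarithmic) in the 5 groups (x axes), with 1 point per sample in the order of replicates 1 to 3. *Id3* to *Id1* and *Id3* to *Id2* are lowest in D6PGCLCs, and *Bmp4* to *Bmp7* is highest in D2PGCLCs.

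Per kb of exon, *Id3* made up 64.1% ± 4.11 (SD, n = 3) of the summed level of *Id1*, *Id2*, *Id3* and *Id4* in ESCs and 62.3% ± 2.34 in EpiLCs, and in PGCLCs 58.6% ± 3.84 on day 2, 57.8% ± 3.28 on day 4 and 31.4% ± 1.36 on day 6. On day 6 *Id1* made up 36.8% ± 7.04. *Id2* made up 1.60% ± 0.154 of the sum in ESCs and 19.6% ± 0.632 in EpiLCs. *Id4*, the remaining *Id* gene and not one of the 10, had 2.44% ± 0.571 in EpiLCs and 16.1% ± 0.795 in D2PGCLCs. In CPM *Id4* was lower in EpiLCs than in ESCs (log2 fold change -2.65, SE 0.19, edgeR adjusted p = 1.07e-09) and then higher in D2PGCLCs (2.98, SE 0.19, adjusted p = 2.54e-10). From day 4 to day 6 *Id4* was lower by less than the cutoff (-0.53, SE 0.17, edgeR adjusted p = 0.0453), and the ratio of *Id3* to *Id4* was not tested. Shares of a sum are not independent of each other.

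Some markers of other cell types also moved on day 6. *Hand1*, a transcription factor of mesoderm and trophoblast, had a mean of 3.66 CPM in D4PGCLCs and 13.1 CPM in D6PGCLCs, and *Gata6*, of endoderm, 1.81 and 9.25 CPM. The 5 mesoderm markers summed to 3.79 to 5.96 CPM on day 4 and 11.7 to 17.4 CPM on day 6, with 1 of 5 over 1 CPM on both days. *T* was at 0.0241 CPM on day 6, and *Mesp1* was at 0 in all EpiLC and D2PGCLC samples. In ESCs the mesoderm markers summed to 17.4 to 18.2 CPM, with *T* at a mean of 14.8 CPM. The endoderm markers summed to 5.36 to 6.53 CPM in ESCs and the trophoblast markers to 20.3 to 24.1 CPM. The 5 endoderm markers summed to 4.47 to 4.67 CPM on day 4 and 9.51 to 18.0 CPM on day 6, with 1 and 3 of 5 over 1 CPM, and *Foxa2* was at 0.0262 CPM on day 6. The 5 trophoblast markers summed to 11.6 to 12.7 and 11.0 to 15.4 CPM, and the 5 fibroblast markers to 2.03 to 2.17 and 1.47 to 2.05 CPM. The part of such cells in the fall of *Id3* and the rise of *Bmp7* was not tested.

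Between EpiLCs and ESCs the fibroblast markers also differed. They summed to 18.2 to 19.8 CPM in EpiLCs, with 3 of 5 over 1 CPM, and to 0.889 to 2.19 CPM in D2PGCLCs. In ESCs they summed to 7.58 to 8.38 CPM, with 2 of 5 over 1 CPM, and *Col3a1* and *Postn* were at 0. Most of the sum was *Thy1*, with means of 12.8 CPM in EpiLCs and 5.80 CPM in ESCs. *Col3a1* and *Postn* had 0.786 and 0.063 CPM in EpiLCs. *Col1a1* and *Col1a2* had means of 1.96 and 0.135 CPM in ESCs, 3.60 and 1.53 CPM in EpiLCs, and 0.338 and 0.435 CPM in D2PGCLCs. The part of fibroblasts in the EpiLC peaks of *Bmp8b* and *Msx1* was not tested.

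*Msx1* and *Msx2*, related homeobox genes, moved in opposite directions on the first 2 days of induction. *Msx1* (ENSMUSG00000048450, chr5:37820485-37824583, minus strand) had 33, 26 and 36 counts in ESCs and 109, 96 and 79 in EpiLCs. In PGCLCs it had 0, 2 and 0 counts on day 2, 5, 12 and 1 on day 4, and 0, 18 and 6 on day 6. Every EpiLC sample lay above every ESC sample, and every ESC sample above every PGCLC sample. *Msx2* (ENSMUSG00000021469, chr13:53466884-53473074, minus strand) had 15, 15 and 32 counts in ESCs and 17, 4 and 6 in EpiLCs, and in PGCLCs 113, 91 and 73 on day 2, 41, 59 and 81 on day 4, and 29, 52 and 19 on day 6. In CPM the day 2 samples overlapped with day 4 only, since D4PGCLC replicate 3 (2.32 CPM) lay above D2PGCLC replicate 3 (2.19 CPM).

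In D2PGCLCs *Msx1* was almost lost. The EpiLC samples held 284 counts and the D2PGCLC samples 2, a depth-adjusted ratio of 159 with a 95% counting interval of 43.6 to 1320 (edgeR adjusted p = 8.19e-06). Against ESCs, with 95 counts, the ratio was 55.7 (15.0 to 466). The D4PGCLC samples held 18 counts and the D6PGCLC samples 24, and the ratio of EpiLCs to D6PGCLCs was 16.8 (11.0 to 26.6). The fitted log2 fold change of D6PGCLCs against EpiLCs was -4.10 with D6PGCLC replicate 1 and -3.53 without it. The D6PGCLC mean was 0.189 CPM with and 0.283 CPM without replicate 1, and the log2 fold change against ESCs was -2.58 with it (SE 0.73, edgeR adjusted p = 0.00602) and -2.00 without it.

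The EpiLC and ESC samples of *Msx1* did not overlap, but the difference missed the threshold (log2 fold change 1.52, SE 0.64, edgeR adjusted p = 0.0522). It passed in DESeq2 (adjusted p = 0.0285), with DESeq2's size factors in edgeR (0.0458), with no filter on low counts (0.00883), in the fit of these 2 groups alone (0.000119), and without D6PGCLC replicate 1 (0.00918). It also passed without D2PGCLC replicate 2 (adjusted p = 0.0471), D4PGCLC replicate 2 (0.0439) or 3 (0.0395), or D6PGCLC replicate 2 (0.0335). The log2 fold change was 1.51 to 1.56 in these fits.

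*Msx2* was 8.96-fold higher in D2PGCLCs than in EpiLCs (log2 fold change 3.16, SE 0.50, edgeR adjusted p = 3.2e-05) and was lower in D6PGCLCs than in D2PGCLCs (-1.85, SE 0.44, adjusted p = 0.00309). In D6PGCLCs it was called higher than in EpiLCs (1.31, SE 0.51, edgeR adjusted p = 0.0347), but the samples overlapped, and the call was lost without EpiLC replicate 2 (0.92), EpiLC replicate 3 (1.11) or D6PGCLC replicate 2 (0.98) and in the fit of these 2 groups alone (1.28, adjusted p = 0.133). No neighbors in its order of means, D2PGCLC, D4PGCLC, D6PGCLC, ESC and EpiLC, differed by the test (adjusted p = 0.0613 to 0.866). Leaving out EpiLC replicate 1, which held 17 of the 27 EpiLC counts, moved EpiLCs against ESCs from -1.21 to -2.09 (edgeR adjusted p = 0.00555).

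The rest of the pathway was counted in a list of 58 genes by role, of which 48 are not among the 10 and 36 of those were tested. Of the 36, 4 were called higher and 7 lower in EpiLCs against ESCs, 1 and 7 in D2PGCLCs against EpiLCs, 1 and 1 from day 2 to day 4, and 2 and 1 from day 4 to day 6. Of all tested genes, 14.4% and 11.9%, 11% and 14.4%, 2.56% and 0.376%, and 2.29% and 0.785% were called higher and lower in these steps. Against EpiLCs 4 of the 36 were called higher and 7 lower on day 6, beside 15.9% and 12% of all tested genes, and against ESCs 4 and 6, beside 15.8% and 10.3%. Only results of the 10 genes were checked with samples left out, so calls of the 36 were not checked without D6PGCLC replicate 1. The median log2 fold change of the 36 over the 4 steps was -0.01, -0.21, 0.04 and 0.22, against -0.01, 0.00, 0.02 and -0.01 over all tested genes.

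Among the 9 other receptor and co-receptor genes, all of which were tested, *Rgma* and *Rgmb*, co-receptors of BMP ligands, differed in direction. *Rgma* was lower in EpiLCs than in ESCs (log2 fold change -1.47, SE 0.30, edgeR adjusted p = 0.000364) and lower again in D2PGCLCs (-1.28, SE 0.32, adjusted p = 0.00226). *Rgmb* was higher in D6PGCLCs than in ESCs (1.18, SE 0.17, edgeR adjusted p = 1.1e-05). The receptor genes *Bmpr1b* and *Acvrl1*, named after their values were seen, had at most 82 counts in a sample, and *Bmpr1b* rose from 21 counts over the ESC samples to 220 over the EpiLC samples (adjusted p = 4.24e-05). *Acvrl1* went from 99 counts over the EpiLC samples to 1 over the D2PGCLC samples (adjusted p = 8.39e-05).

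Of the 4 SMAD genes that carry the signal, *Smad1* was called higher in D6PGCLCs than in EpiLCs (log2 fold change 1.20, SE 0.14, edgeR adjusted p = 6.63e-07). It had 16.3, 14.1 and 15.5 CPM in EpiLCs, and 37.7, 28.6 and 39.0 CPM in D6PGCLCs. *Smad9*, named after its values were seen, had 81 counts over the EpiLC samples, 2 over the D2PGCLC samples, 34 on day 4 and 165 on day 6, and was called in all 4 steps.

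Extracellular antagonists, which bind ligands and keep them from their receptors, were called lower in D2PGCLCs than in EpiLCs for 3 of the 7 tested (*Chrd*, *Chrdl1* and *Fst*), where 14.4% of all tested genes were called lower. *Twsg1*, named after its values were seen, had the highest level of the 7 in every group and was not called in any of the 6 comparisons. Its means were 39.7 CPM in ESCs, 55.2 CPM in EpiLCs, and 34.5, 52.6 and 61.3 CPM in PGCLCs on days 2, 4 and 6. *Fst* (follistatin) had 12.3, 12.4 and 11.1 CPM in ESCs and 4.90, 4.31 and 2.39 CPM in EpiLCs. It had 1.59, 0.753 and 2.22 CPM in D2PGCLCs, 0.455, 0.331 and 1.17 CPM in D4PGCLCs, and 0, 0.220 and 0.227 CPM in D6PGCLCs. The value of 0 is from D6PGCLC replicate 1, where low counts were largely missing. All ESC samples lay above all EpiLC samples and these above all PGCLC samples. *Chrd* (chordin) and *Chrdl1*, named after their values were seen, went from 254 and 133 counts over the EpiLC samples to 41 and 9 over the D2PGCLC samples (edgeR adjusted p = 1.36e-05 and 9.35e-05). None of the 4 other inhibitor genes and none of the 3 E protein genes was called by edgeR in any of the 6 comparisons, although in D6PGCLCs against EpiLCs 3 and 3 of them had an adjusted p under 0.05 with a smaller fold change.

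**Figure D5:**
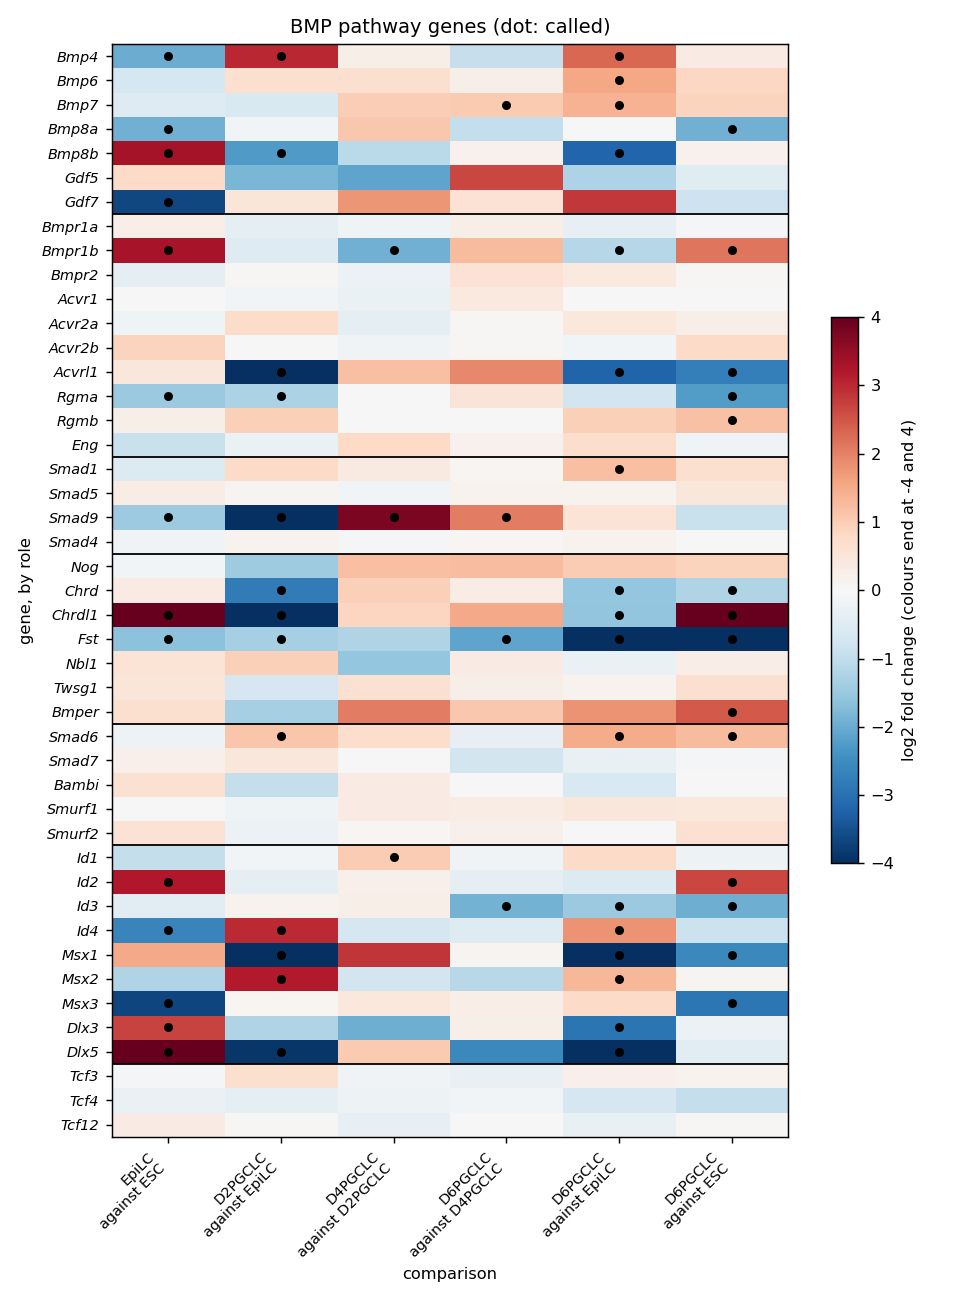
Fitted log2 fold change (color, ending at -4 and 4) of the 45 tested genes of the BMP pathway list (y axis, grouped by role between black lines, from ligands at the top to E proteins at the bottom) in 6 comparisons (x axis). Dots mark called genes, of which the columns of D4PGCLCs against D2PGCLCs and D6PGCLCs against D4PGCLCs hold the fewest, with 3 and 4.

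The genes whose levels most resembled those of 5 of the genes were ranked by Pearson's r of log2(CPM + 1) over the 15 samples, among genes with a mean of at least 100 counts. The 15 samples form 5 groups, so this describes group levels. For *Bmp4* they included *Sfn* (r = 0.98) and *Pianp* (0.97), and for *Bmp8b* *Klhl7*, *Jmjd6* and *Dhx15* (each 0.96). For *Id3* they were *Dyrk3* (0.93), *Arxes2* (0.92) and *Ssr2* (0.92), for *Bmpr1a* *Fem1b* (0.94), *Ptpn4* (0.93) and *Kpna3* (0.92), and for *Id1* *Il17rc* (0.90), *Peli3* (0.87) and *Eng* (0.87). *Eng* codes for endoglin, a co-receptor of BMP ligands, and had 30.0, 16.1, 13.5, 23.4 and 26.5 CPM as means of ESCs, EpiLCs and PGCLCs on days 2, 4 and 6, low in the same groups as *Id1*.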

How the data were processed

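Total RNA from 15 samples (5 groups of 3 replicates, grouped by their titles) was sequenced from directional libraries by the authors. They aligned the reads to mouse mm10 with ENSEMBL annotation and deposited raw counts per gene with no normalization. The submitters' processing notes name Trim Galore, FastQC and STAR, and the counting tool and its use of strand are not given in the sources used here. All 55536 identifiers matched GENCODE M21, the source of symbols, coordinates and exon lengths.

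The counts were tested with edgeR 4.0.16 in R 4.3.3 (TMM, filterByExpr with a minimum count of 10, quasi-likelihood fit of all 15 samples, Benjamini-Hochberg adjustment over 18090 genes), after a run on simulated data. Calls needed a log2 fold change beyond 1 in either direction besides an adjusted p under 0.05. Alternatives were DESeq2 1.42.0, which the study's methods name, its size factors in edgeR, no filter, no cutoff on the fold change, the replicate number as a block, a fit of only the 2 groups at hand, and each sample left out in turn. Counting intervals (95%) cover counting error only. No source says that replicates were separate cultures, so p-values measure the spread between these samples. Between replicates of a group the chi-square per gene was 8.82 to 44.6, above sampling noise, so each sample was counted as 1 replicate. The genes named were the 10 genes, the other pathway genes that were called with a mean of at least 100 counts in a group (at most 4 per role), and the 3 genes most like each of *Id1*, *Id3*, *Bmp4*, *Bmp8b* and *Bmpr1a*, of which 1 gene is not reported here. The 10 genes and all lists were chosen with earlier results of these data known. Promoters came from RefSeq (GRCm38.p6).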

Additional observations from a re-analysis of the deposited data

How the results depend on the processing

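The counts of called genes moved by more than 1.5 times in few settings. With no fold change cutoff, 3 genes were lower in EpiLCs than in ESCs, 2 were higher from day 2 to day 4, 2 were lower from day 4 to day 6, and 5 were lower in D6PGCLCs than in EpiLCs. From day 2 to day 4, 2 were called higher with no filter on low counts and 0 in the fit of the 2 groups alone. With 1 sample left out, the lower calls in EpiLCs against ESCs ranged from 1 to 3, the higher calls from day 2 to day 4 from 0 to 1, and the lower calls from day 4 to day 6 from 1 to 2. Some differences below the cutoff did not keep an adjusted p under 0.05 in all settings. Over the edgeR and DESeq2 settings the highest adjusted p was 0.127 for *Smad6* from day 2 to day 4. It was 0.0936 for *Bmpr1a* and 0.0768 for *Id3* in EpiLCs against ESCs, and 0.0778 for *Id2* in D6PGCLCs against EpiLCs. Fold changes changed sign for genes that were not called. With 1 sample left out, *Id1* ranged from -0.27 to 0.093 in D2PGCLCs against EpiLCs. From day 4 to day 6, *Bmp8b* ranged from -0.50 to 0.75, *Msx1* from -1.08 to 1.10 and *Id1* from -0.45 to 0.086. In D6PGCLCs against ESCs, *Bmp8b* ranged from -0.52 to 0.74, *Msx2* from -0.23 to 0.46, *Bmpr1a* from -0.099 to 0.015 and *Id1* from -0.49 to 0.059. Replicates share numbers in the labels. The deviations of samples with the same number correlated at a mean of 0.070 (-0.18 to 0.36 over 30 pairs), against -0.04 for 60 other pairs. This small difference cannot tell whether samples of the same number were paired. With the replicate block, *Bmp8b* was at -0.072 in D6PGCLCs against ESCs (adjusted p = 0.941), *Msx1* passed in EpiLCs against ESCs (1.53, adjusted p = 0.0463), and no other call changed. DESeq2 gave no adjusted p for 1 of 54 results, and in the fits of 2 groups 2 of 54 had no value, since the gene did not pass the filter there. The cause of these changes was not tested. Below about 20 counts per sample, as for *Bmp2*, *Bmp8b* and *Msx1* in PGCLCs, depth limits what can be told apart.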
